A study of Mus musculus with 9 samples.

Results

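Lung RNA of mice given Qing-Jin-Hua-Tan decoction (QJHTD) was compared with lung RNA of mice that went through the same exposure without it, gene by gene. The comparison was between 6 of the 9 libraries of the study, 3 of the QJHTD group and 3 of the Model group. It covered all genes with at least 1 TPM (expression scaled by gene length and library total) in at least 3 of these 6 libraries. This left 14779 of 56263 genes in the table. All mice were wild-type male BALB/c, bought at 6 to 8 weeks of age, in an experiment of 42 days. Model mice received 20 µg of lipopolysaccharide, the inflammatory cell-wall component of Gram-negative bacteria, into the trachea under pentobarbital on days 1 and 14. They were also exposed 3 times daily, for 30 min each, to smoke from 6 cigarettes, and had vehicle by gavage. QJHTD mice had the same exposure and were given the decoction, a boiled extract of 11 herbs, by gavage before each day's exposure at the highest of 3 doses. Control mice (3 libraries) had neither irritant. Their values are given beside the comparison, and their libraries were in the fit, where they added to the estimate of the spread. The study kept 8 mice in each group. No label says that the libraries come from different mice, and they were treated here as if they did. The exposure is a short model of chronic obstructive pulmonary disease (COPD) in which smoke and lipopolysaccharide cannot be separated, and no library from mice given QJHTD without the irritants was analysed here.

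COPD is an inflammation of airways and alveoli, most often from smoke, in which neutrophils collect in the lung. Neutrophils reach it along gradients of CXC chemokines, survive under granulocyte colony-stimulating factor, and carry proteases that digest the matrix, while interleukin 1 beta and TNF from macrophages and neutrophils sustain the recruitment through NF-kappa B. The capillary endothelium and the alveolar epithelium, which BMP and VEGF signals maintain, are lost where alveoli break down.

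The libraries held lung RNA. Sftpc, the surfactant protein of alveolar type 2 cells, stood at 12396, 11426 and 11486 TPM in Model and 12088, 13975 and 13110.0 TPM in QJHTD. Ager, the marker of alveolar type 1 cells, stood at 522, 479 and 456 TPM in Model and 513, 603 and 634 TPM in QJHTD. Pairs of a Model and a QJHTD library correlated at 0.964 to 0.976 across genes and pairs within a group at 0.967 to 0.980, so the groups were about as alike as the libraries within them. Antibody and T cell receptor segments took 38.6% ± 3.76 (SD, n = 3) of the TPM in Model and 39.4% ± 3.71 (SD, n = 3) in QJHTD, a difference smaller than the spread between libraries (exact permutation test, two-sided, p = 0.5, where 0.1 is the smallest this design allows). In Control they took 0.458%, so TPM of other genes in both exposed groups are relative to a total that antibody transcripts largely filled. QJHTD replicate 2 stood apart by high interferon-induced genes, and Model replicate 2 and QJHTD replicate 1 by low ciliated cell genes (mean 2.78 and 2.97 log2(TPM + 1), against 3.38 to 4.38 in the other 4). Many of the results below are given again with these libraries left out. The cause of their difference was not tested.

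Few genes differed beyond the spread between libraries. At a Benjamini-Hochberg adjusted p under 0.05 in limma, 2 of 14779 genes (0.0135%) passed, both higher in QJHTD. At an unadjusted p under 0.05, 631 genes (4.27%) were higher and 426 (2.88%) lower, or 7.15% in all, where 5% is the share that no difference would give. The split of 59.7% higher depended on the scale: it was 624 higher against 696 lower after median-ratio rescaling and 713 against 683 after quantile normalization. The median log2 fold change (QJHTD minus Model on log2(TPM + 1)) was 0.05 and the middle 90% of genes lay between -0.39 and 0.37. The precision was moderate, with a median half-width of 0.32 for the 95% interval of a log2 fold change, and 13356 genes (90.4%) had an interval wholly between -1 and 1. In the following, a gene is said to have risen or fallen only if its adjusted p was under 0.05, and genes at an unadjusted p under 0.05 are called lower or higher at an unadjusted p. A value with ± in brackets after TPM values is the log2 fold change with its SE.

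**Figure D1:**
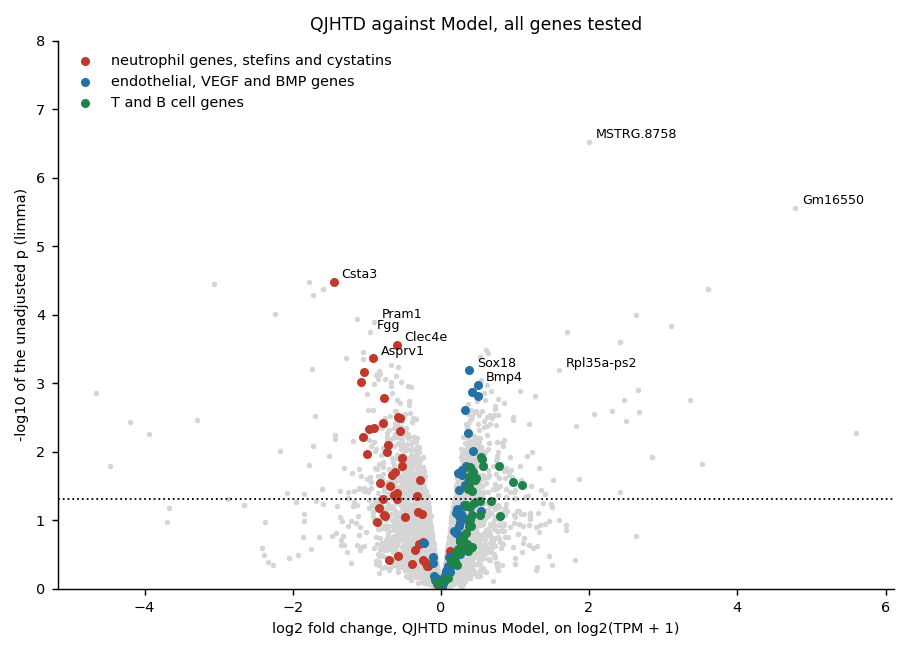
Each point is 1 of 14779 genes, with the log2 fold change (QJHTD minus Model) on the x axis and -log10 of the unadjusted limma p on the y axis. The dotted line marks the unadjusted threshold. The coloured lists show neutrophil genes and most stefins to the left of 0 and vascular and lymphocyte genes mostly to the right, while MSTRG.8758 and Gm16550 are the 2 genes past the adjusted threshold.

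The genes that rose were an unnamed locus and a pseudogene. MSTRG.8758, a locus of 246 bases assembled by the authors without a gene name, was listed at 0 in all Model and Control libraries and at 2.38, 3.33 and 3.33 TPM in QJHTD (adjusted p = 0.00445, limma). Gm16550, a processed pseudogene of 126 bases on chromosome 1 (165148824 to 165148949, minus strand, GRCm38) that lies within the span of Tbx19 on the same strand, stood at 0, 0.69 and 0 TPM in Model and 74.8, 25.3 and 16.4 TPM in QJHTD, a log2 fold change of 4.77 ± 0.46 (SE) (adjusted p = 0.0202, limma). Both features reached 1 TPM in the 3 QJHTD libraries only and passed the filter through them, so a lack of overlap was bound to follow. Gm16550 missed the threshold in 11 of 19 alternative analyses, at adjusted p between 0.0502 and 0.205 (limma). One of these was the fit of the 6 libraries without Control, with an adjusted p of 0.153 (limma). The next named gene was Csta3, a stefin, which fell short of the threshold (adjusted p = 0.0903, limma).

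Stefins are small inhibitors of cysteine proteases such as cathepsins. Mice carry a cluster of stefin A genes on chromosome 16 that is absent in this form from humans, and its members are abundant in neutrophils. The promoters of 4 of its members that were lower in QJHTD without overlap of the libraries are shown. Cstdc4 met that condition too, and its window was scanned but is not shown. The promoters of Il1b and Clec4e are shown because they are the inflammatory genes outside the cluster that the results turn on. Each window runs from 250 bases before to 50 bases after the annotated start (RefSeq, GRCm38.p6, 5′ to 3′ on the gene's strand), with Csta3 at chr16:36210153-36210452 (plus strand), Cstdc5 at chr16:36367521-36367820 (minus), Stfa2 at chr16:36408314-36408613 (minus), Stfa2l1 at chr16:36156561-36156860 (plus), Il1b at chr2:129371090-129371389 (minus) and Clec4e at chr6:123289822-123290121 (minus). Capitals mark matches, on either strand, to TTNNGNAA, a loose form of the C/EBP site, or to GAGGAAG, a form of the PU.1 site, both factors of myeloid cells.
Csta3: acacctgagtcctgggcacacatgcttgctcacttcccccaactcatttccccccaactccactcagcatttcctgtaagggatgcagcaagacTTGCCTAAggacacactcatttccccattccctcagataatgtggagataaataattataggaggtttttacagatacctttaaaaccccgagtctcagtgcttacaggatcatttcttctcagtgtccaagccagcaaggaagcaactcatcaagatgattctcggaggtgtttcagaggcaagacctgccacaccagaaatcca
Cstdc5: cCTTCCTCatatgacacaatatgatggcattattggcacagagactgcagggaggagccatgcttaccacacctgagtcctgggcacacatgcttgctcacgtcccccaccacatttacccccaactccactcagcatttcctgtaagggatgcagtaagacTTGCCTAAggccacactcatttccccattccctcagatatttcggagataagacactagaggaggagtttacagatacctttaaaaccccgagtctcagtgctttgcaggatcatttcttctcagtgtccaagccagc
Stfa2: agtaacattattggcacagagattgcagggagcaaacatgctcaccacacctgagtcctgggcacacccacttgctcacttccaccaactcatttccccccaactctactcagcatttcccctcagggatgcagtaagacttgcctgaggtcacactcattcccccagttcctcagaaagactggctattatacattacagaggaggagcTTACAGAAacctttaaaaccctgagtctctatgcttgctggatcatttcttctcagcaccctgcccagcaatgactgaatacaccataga
Stfa2l1: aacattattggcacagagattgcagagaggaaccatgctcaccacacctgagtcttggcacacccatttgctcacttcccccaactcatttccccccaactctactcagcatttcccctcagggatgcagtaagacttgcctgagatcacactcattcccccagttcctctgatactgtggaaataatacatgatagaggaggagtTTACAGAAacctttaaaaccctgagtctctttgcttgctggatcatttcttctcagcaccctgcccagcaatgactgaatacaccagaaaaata
Il1b: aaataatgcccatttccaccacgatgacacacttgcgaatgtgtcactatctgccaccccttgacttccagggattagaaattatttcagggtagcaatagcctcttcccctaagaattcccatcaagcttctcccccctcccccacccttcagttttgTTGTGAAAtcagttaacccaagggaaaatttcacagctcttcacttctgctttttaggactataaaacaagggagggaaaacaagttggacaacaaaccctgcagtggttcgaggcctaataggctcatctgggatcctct
Clec4e: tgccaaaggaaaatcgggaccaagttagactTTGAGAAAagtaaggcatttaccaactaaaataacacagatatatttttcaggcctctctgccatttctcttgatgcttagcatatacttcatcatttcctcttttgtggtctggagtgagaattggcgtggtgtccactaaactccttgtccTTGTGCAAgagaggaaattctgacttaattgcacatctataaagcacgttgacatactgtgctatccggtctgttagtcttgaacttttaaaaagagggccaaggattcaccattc

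In all, 16 windows were scanned. TTNNGNAA was found in 10 of them, including the 6 shown, and not in those of Stfa3, Csf3r, Cxcr2, Asprv1, Fgg and Id3, against 40.7% of all 32851 windows of this length. GAGGAAG was found in 6 of the 16 windows, against 13.6% of all windows. Of the 6 shown, that of Cstdc5 alone held it, and of the stefin windows not shown, those of Cstdc4 and Stfa1 did. TATAAA, the TATA box (13.6% of all windows), was found in Il1b and Clec4e and in none of the stefin windows shown, and a form of the NF-kappa B site (GGGA and TTCC around a pair of any bases, 1.47% of all windows) in none of the 6. The 7 stefin A windows share the run acctttaaaaccc, 80 bases upstream of the start in Csta3, which occurs in 9 of the 32851 windows. Pairs of these 7 windows were 58.0% to 90.5% identical, so their matches are not separate observations. The matches and runs are descriptions of the letters, not of binding.

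Stefin A genes had the lowest median of the lists described here. Csta3 (chromosome 16, GRCm38, under the name Gm5416 in GENCODE) stood at 26.6, 29.8 and 23.7 TPM in Model and 8.92, 6.7 and 12.7 TPM in QJHTD and was listed at 0 in every Control library. Its log2 fold change was -1.44 ± 0.19 (SE), with QJHTD at 0.353 of the Model mean (unadjusted p = 3.35e-05, limma), and no QJHTD library reached the lowest Model library. Stfa2 stood at 228, 234 and 148 TPM in Model and 85.8, 77.96 and 122 TPM in QJHTD, a log2 fold change of -1.08 ± 0.23 (SE) (unadjusted p = 9.62e-04, limma). Cstdc5 stood at 184, 178 and 123 TPM in Model and 64.8, 68.2 and 102 TPM in QJHTD (-1.04 ± 0.21 (SE), unadjusted p = 6.88e-04, limma). Both were lower in all 3 QJHTD libraries, with Model replicate 3 the lowest of its group and QJHTD replicate 3 the highest of its own in each gene. In Stfa3 (117, 140.2 and 69.3 TPM in Model and 45.4, 45.1 and 72.3 TPM in QJHTD) and Cstdc6 (116, 103 and 51.8 TPM in Model and 52.3, 42.9 and 64.5 TPM in QJHTD) those same libraries crossed, so that the groups overlapped. Cstdc4 stood at 470, 478 and 351 TPM in Model and 201, 169 and 292 TPM in QJHTD, without overlap (-0.99 ± 0.31 (SE), unadjusted p = 0.0110, limma). Cstb, the stefin of most cell types, was lower by a smaller step, at 501, 432 and 449 TPM in Model and 366, 381 and 392.1 TPM in QJHTD (-0.28 ± 0.10 (SE), unadjusted p = 0.0261, limma), while Cst3, the secreted cystatin C, stood at 782, 785 and 698 TPM in Model and 796, 851 and 819 TPM in QJHTD (0.12 ± 0.11 (SE), unadjusted p = 0.283, limma). In all, 8 of 11 stefins and cystatins tested were lower at an unadjusted p (72.7%, against 2.88% of all genes) and none higher, with a median log2 fold change of -0.97, beside 0.05 for all genes. No member passed after adjustment.

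Stefin A genes resemble each other, so reads may have been shared out among them: 36.1% of the 31-base words of the Cstdc5 transcripts occur in another stefin A gene, 29.3% of those of Stfa2l1 and 26.1% of those of Stfa2, but 3.03% of those of Csta3. Without Model replicate 2 and QJHTD replicate 1, 3 stefins rather than 8 were lower at an unadjusted p, and the median was -0.65. In bulk tissue, fewer cells of a type and less RNA per cell cannot be told apart, here and in every result that follows.

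Neutrophil genes were lower as a group in QJHTD and stayed well above the Control level. Of 37 tested, all 37 had a negative fold change, 20 were lower at an unadjusted p (54.1%, against 2.88% of all genes), 17 did not overlap between groups (against 3.98% of all genes) and none passed after adjustment. The median log2 fold change was -0.59, while the same genes stood a median of 3.80 higher in Model than in Control.

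Several receptors by which neutrophils sense their surroundings were lower at an unadjusted p. Clec4e (Mincle, a lectin receptor for microbial glycolipids and dead cells) stood at 88.2, 81.2 and 89.6 TPM in Model and 53.7, 51.9 and 65.97 TPM in QJHTD, against 0.8, 0.75 and 0.79 TPM in Control, a log2 fold change of -0.59 ± 0.10 (SE) (unadjusted p = 2.79e-04, limma). Its neighbour Clec4d, a related receptor, stood at 145, 128 and 145 TPM in Model and 88.7, 84.5 and 105 TPM in QJHTD (-0.58 ± 0.15 (SE), unadjusted p = 0.00317, limma). In both genes all Model libraries lay above all QJHTD libraries by more than the range within either group. The formyl peptide receptor Fpr2, which guides neutrophils to bacteria, stood at 221, 229.97 and 165 TPM in Model and 119, 88.5 and 155 TPM in QJHTD (-0.79 ± 0.20 (SE), unadjusted p = 0.00382, limma). Its relative Fpr1 stood at 95.3, 94.3 and 53.9 TPM in Model and 51.5, 25.9 and 62.6 TPM in QJHTD, and there the groups overlapped (-0.83 ± 0.32 (SE), unadjusted p = 0.0291, limma). Hcar2, the niacin receptor, stood at 102, 81.3 and 116 TPM in Model and 68.9, 61.9 and 70.01 TPM in QJHTD (-0.56 ± 0.15 (SE), unadjusted p = 0.00508, limma). Trem1, a receptor that amplifies inflammatory signals, stood at 24.8, 22.2 and 18.4 TPM in Model and 13.4, 9.36 and 16.6 TPM in QJHTD (-0.71 ± 0.21 (SE), unadjusted p = 0.00808, limma). The Mas-related receptor Mrgpra2b stood at 51.7, 49.4 and 34.8 TPM in Model and 28.4, 21.4 and 30.4 TPM in QJHTD (-0.73 ± 0.23 (SE), unadjusted p = 0.0103, limma). In the last 3 genes the groups did not overlap, and QJHTD replicate 2 was the lowest library each time.

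Cxcr2, the receptor for the CXC chemokines that draw neutrophils, stood at 54.7, 57.4 and 34.5 TPM in Model and 25.5, 20.1 and 30.6 TPM in QJHTD (-0.90 ± 0.24 (SE), unadjusted p = 0.00449, limma). Asprv1, an aspartic protease of neutrophils and skin, stood at 194, 204 and 133 TPM in Model and 88.1, 81.7 and 108 TPM in QJHTD and was 0.524 of the Model mean in QJHTD (-0.91 ± 0.17 (SE), unadjusted p = 4.37e-04, limma). Neither gene overlapped between groups. The gelatinase Mmp9 (63.9, 78.8 and 40.5 TPM in Model and 44.7, 29.2 and 40.8 TPM in QJHTD) and the collagenase Mmp8 (68.1, 76.9 and 26.7 TPM in Model and 28.4, 25.5 and 36.9 TPM in QJHTD) were lower at an unadjusted p (0.0437 and 0.0486, limma) with overlap, since Model replicate 3 was at the level of the QJHTD libraries. Ly6g, the surface protein by which mouse neutrophils are sorted, stood at 42.3, 42.2 and 27.1 TPM in Model and 22.7, 23.9 and 25.1 TPM in QJHTD, without overlap, though Model replicate 3 lay close to the QJHTD libraries (-0.59 ± 0.25 (SE), unadjusted p = 0.0409, limma).

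Granule and alarmin genes, which include the most abundant neutrophil transcripts, were more variable. S100a8 and S100a9, the subunits of calprotectin, were low in Model replicate 3: S100a8 stood at 4510.2, 4699 and 2145 TPM in Model and 2146, 1386 and 2668 TPM in QJHTD (-0.84 ± 0.40 (SE), unadjusted p = 0.0664, limma). The granule genes Ngp (-0.58 ± 0.57 (SE)), Camp (-0.39 ± 0.49 (SE)), Ltf (-0.70 ± 0.77 (SE)) and Lcn2 (-0.18 ± 0.24 (SE)) and the primary granule genes Mpo (-0.24 ± 0.26 (SE)) and Elane (-0.35 ± 0.30 (SE)) did not pass at an unadjusted p. Slfn4, a myeloid gene that interferon induces, had the fold change nearest to 0 in the list, at 125, 96.6 and 129 TPM in Model and 66.7, 164 and 127 TPM in QJHTD, with QJHTD replicate 1 the lowest and replicate 2 the highest library.

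The neutrophil result leaned on single libraries. The mean level of the list was 6.22, 6.22 and 5.69 log2(TPM + 1) in Model and 5.43, 5.32 and 5.72 in QJHTD, so that QJHTD replicate 3 lay just above Model replicate 3. The number of the 37 genes lower at an unadjusted p was 10 without Model replicate 1, 12 without Model replicate 2, 27 without Model replicate 3, and 13 without QJHTD replicate 1 or without QJHTD replicate 2. Without both Model replicate 2 and QJHTD replicate 1 it was 11. The genes of the list together took 1.76% ± 0.487 (SD, n = 3) of the TPM in Model, 1.14% ± 0.238 (SD, n = 3) in QJHTD and 0.0864% in Control. For QJHTD against Model this share gave p = 0.2 (exact permutation test, two-sided, where 0.1 is the smallest possible).

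**Figure D2:**
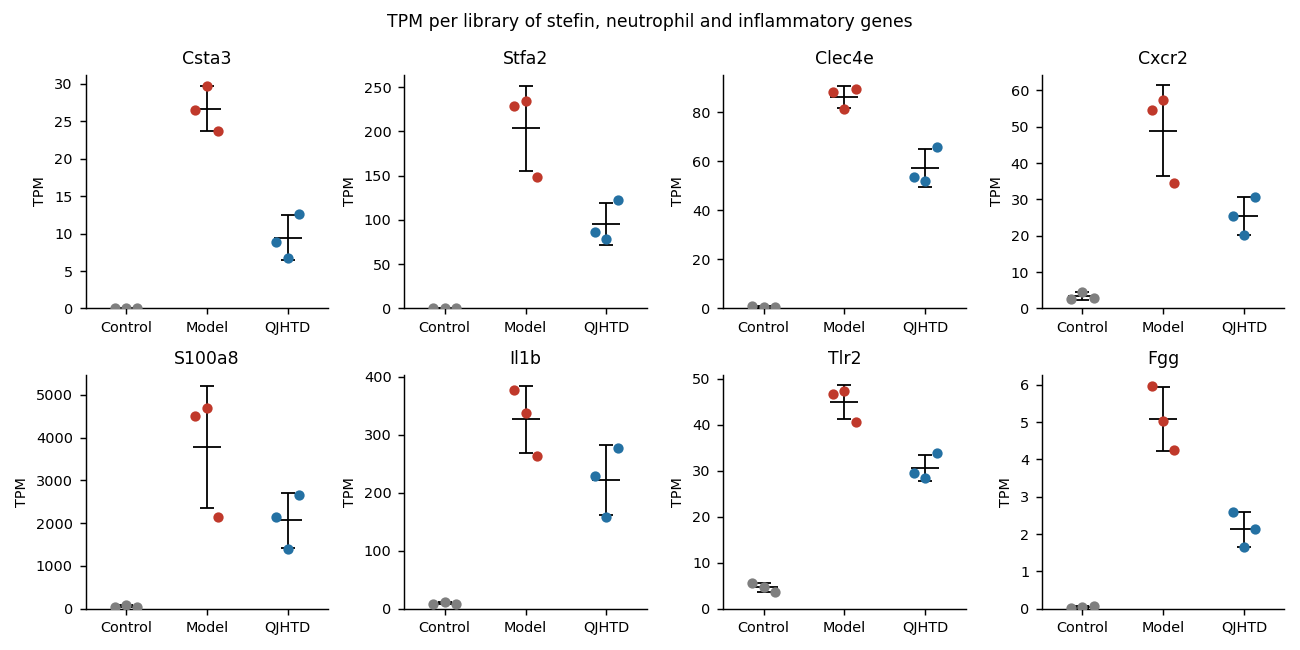
TPM per library (y axis, from 0) of Csta3, Stfa2, Clec4e, Cxcr2, S100a8, Il1b, Tlr2 and Fgg in the 3 groups (x axis); points are libraries, and the black bar and whiskers are the mean and SD of 3. Csta3 stood at 26.6, 29.8 and 23.7 TPM in Model and 8.92, 6.7 and 12.7 TPM in QJHTD, while the S100a8 and Il1b libraries of the groups overlap.

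The list of CXC chemokines drawn up for neutrophils, which also holds the platelet chemokine Pf4, pointed the same way with less certainty. All 6 tested had a negative fold change, 2 were lower at an unadjusted p (33.3%, against 2.88% of all genes), and the median was -0.45. Pf4, the platelet chemokine CXCL4, stood at 40.9, 38.7 and 40.3 TPM in Model and 28.4, 20.01 and 31.3 TPM in QJHTD (-0.59 ± 0.16 (SE), unadjusted p = 0.00401, limma). Cxcl3 stood at 16.3, 16.5 and 11.7 TPM in Model and 11.5, 3.4 and 10.8 TPM in QJHTD (-0.85 ± 0.36 (SE), unadjusted p = 0.0398, limma). Neither overlapped, and the low value of Cxcl3 in QJHTD replicate 2 set much of its difference. Cxcl2 stood at 132, 85.02 and 93.5 TPM in Model and 75.9, 56.1 and 79.6 TPM in QJHTD, also without overlap (-0.54 ± 0.24 (SE), unadjusted p = 0.0521, limma). Cxcl1 (-0.36 ± 0.22 (SE)), Cxcl5 (-0.31 ± 0.32 (SE)) and Cxcl15 (-0.05 ± 0.18 (SE)) overlapped. Cxcl15 was the most abundant of the list, with a mean of 578 TPM in Model and 555 TPM in QJHTD. The count of 2 became 1 without Model replicate 1, without QJHTD replicate 2 or without Control replicate 3. Chemokines of the CC family and of lymphocytes had no common direction. Of 26, 2 were higher (7.69%, against 4.27% of all genes) and 2 lower (7.69%, against 2.88%). Their median was 0.09, and 8 were higher without QJHTD replicate 1.

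Of 17 cytokines of the interleukin 1, interleukin 6 and TNF families, Il1b and Il1rn were lower (11.8%, against 2.88% of all genes) and Il18 was higher (5.88%, against 4.27%) at an unadjusted p. The median was -0.24. The lower count was 1 without Model replicate 1 or 2 or QJHTD replicate 1 or 2, 4 without Model replicate 3 or Control replicate 2 or 3, and 0 without both Model replicate 2 and QJHTD replicate 1. Il1b, the pyrogenic cytokine that the inflammasome matures, stood at 378, 337 and 263 TPM in Model and 228, 158 and 278 TPM in QJHTD, against 8.8, 11.8 and 8.76 TPM in Control (-0.58 ± 0.22 (SE), 95% interval -1.07 to -0.09, unadjusted p = 0.0258, adjusted p = 0.652, limma). Its receptor antagonist Il1rn stood at 369, 333 and 251 TPM in Model and 219, 205 and 279 TPM in QJHTD (-0.43 ± 0.16 (SE), unadjusted p = 0.0266, limma). In both genes QJHTD replicate 3 exceeded Model replicate 3. Il18, another inflammasome cytokine, was higher, at 11.97, 10.6 and 12.5 TPM in Model and 13.7, 19.9 and 15.3 TPM in QJHTD (0.44 ± 0.14 (SE), unadjusted p = 0.0131, limma). Tnf stood at 46.1, 35 and 39.8 TPM in Model and 25.9, 35.9 and 28 TPM in QJHTD (-0.42 ± 0.21 (SE), 95% interval -0.89 to 0.05, unadjusted p = 0.0731, limma). Il6 stood at 2.36, 2.88 and 3.47 TPM in Model and 2.08, 1.6 and 2.48 TPM in QJHTD (-0.35 ± 0.18 (SE), 95% interval -0.76 to 0.05, unadjusted p = 0.0769, limma). Both intervals include 0, and the groups overlapped. Il17a, the cytokine of Th17 cells, stood at 2.02, 3.18 and 1.59 TPM in Model and 2.64, 3.2 and 4.7 TPM in QJHTD (0.47 ± 0.22 (SE), unadjusted p = 0.0574, limma). Il10, which restrains macrophages, stood at 4.4, 3.83 and 2.85 TPM in Model and 5.08, 4.23 and 5.24 TPM in QJHTD (0.33 ± 0.16 (SE), unadjusted p = 0.0706, limma). Both were thus on the higher side in QJHTD without passing.

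Of 34 genes of Toll-like receptor and NF-kappa B signaling, 4 were lower at an unadjusted p (11.8%, against 2.88% of all genes), none higher, and the median was -0.07. Tlr2, the receptor for bacterial lipopeptides, stood at 46.8, 47.3 and 40.6 TPM in Model and 29.6, 28.6 and 33.8 TPM in QJHTD (-0.54 ± 0.14 (SE), unadjusted p = 0.00326, limma), without overlap. Cd14, which hands lipopolysaccharide to Tlr4, stood at 326, 314 and 225 TPM in Model and 214, 152 and 226 TPM in QJHTD (-0.55 ± 0.21 (SE), unadjusted p = 0.0264, limma). The NF-kappa B feedback inhibitor Tnfaip3 (A20) stood at 57.9, 45.8 and 44.1 TPM in Model and 36.05, 35.6 and 42.2 TPM in QJHTD (-0.36 ± 0.14 (SE), unadjusted p = 0.0325, limma). Irak3, which restrains Toll-like receptor signals, stood at 33.6, 34.3 and 24.04 TPM in Model and 21.6, 12.5 and 25.9 TPM in QJHTD (-0.63 ± 0.25 (SE), unadjusted p = 0.0306, limma). Of these, Cd14 and Irak3 overlapped between groups through Model replicate 3. Tlr4 itself stood at 12.6, 10.6 and 12.02 TPM in Model and 10.5, 12.02 and 10.2 TPM in QJHTD (-0.09 ± 0.11 (SE), 95% interval -0.35 to 0.16) and Nfkb1, the p105 precursor of p50, at 53.02, 48.9 and 39.5 TPM in Model and 40.8, 48.8 and 47.4 TPM in QJHTD (-0.04 ± 0.13 (SE), 95% interval -0.32 to 0.25). Both intervals include 0. The count of 4 was 1 without Model replicate 1, without QJHTD replicate 2 or without both Model replicate 2 and QJHTD replicate 1, and 9 without QJHTD replicate 3.

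MAP kinase, apoptosis and sphingolipid genes, which the study examined, were counted in the same way. Of 22 MAP kinase genes 2 were lower, of 38 apoptosis factors 2 were lower and of 32 sphingolipid enzymes and receptors 1 was lower and 1 higher at an unadjusted p, with medians of -0.02, 0.02 and 0.04, against 2.88% lower and 4.27% higher among all genes. After median-ratio rescaling 2 MAP kinase genes were higher and 4 lower, 1 apoptosis factor was higher and 7 lower, and 1 sphingolipid gene was higher and 2 lower. On that scale the medians for apoptosis and sphingolipid genes changed sign, to -0.02 and -0.0031. The 2 lower apoptosis genes became 0 without QJHTD replicate 1, 1 without Control replicate 1 or 2, Model replicate 1 or QJHTD replicate 2, and 4 without Control replicate 3. The counts of 2 in the MAP kinases became 1 without Model replicate 1 or 2 or QJHTD replicate 1 or 2. Without both Model replicate 2 and QJHTD replicate 1, 0 sphingolipid genes were higher and 3 lower. With any 1 library left out, 0 to 2 of them were higher and 1 to 3 lower. Among the kinases, Mapk13 (p38 delta) stood at 28.9, 22.2 and 31.8 TPM in Model and 15.5, 19.6 and 20.9 TPM in QJHTD (-0.54 ± 0.15 (SE), unadjusted p = 0.00606, limma). Mapk3 (ERK1) had a log2 fold change of -0.11 ± 0.09 (SE) and Mapk8 (JNK1) of -0.19 ± 0.17 (SE). Neither of the last pair passed at an unadjusted p, while the Mapk13 libraries did not overlap.

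Among the apoptosis factors, Bax, which opens mitochondria, stood at 63.3, 63.8 and 60.3 TPM in Model and 54.7, 65.4 and 72.2 TPM in QJHTD (0.03 ± 0.11 (SE), 95% interval -0.23 to 0.28). Bcl2, which opposes it, stood at 2.1, 1.66 and 2.37 TPM in Model and 2.11, 3.11 and 2.2 TPM in QJHTD (0.19 ± 0.17 (SE), 95% interval -0.19 to 0.56). Neither passed at an unadjusted p, and the measurement is of transcripts, not of protein. The pair that passed at an unadjusted p was Bcl2a1a, a survival gene of myeloid cells, at 35.5, 39.4 and 44.8 TPM in Model and 29.9, 33.02 and 31.4 TPM in QJHTD (-0.33 ± 0.12 (SE), unadjusted p = 0.0202, limma), with the death receptor Fas, at 37.1, 39.7 and 35.6 TPM in Model and 27.03, 26.9 and 36.8 TPM in QJHTD (-0.31 ± 0.14 (SE), unadjusted p = 0.048, limma). Bcl2a1a has near-identical copies and its value is uncertain for that reason.

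Among the sphingolipid genes, Sgms2, the sphingomyelin synthase of the plasma membrane, stood at 11.02, 8.91 and 6.65 TPM in Model and 5.13, 4.31 and 5.75 TPM in QJHTD (-0.68 ± 0.17 (SE), unadjusted p = 0.00297, limma), without overlap and still above 2.13, 1.91 and 2.23 TPM in Control. Cers4, a ceramide synthase, stood at 5.01, 5.12 and 4.36 TPM in Model and 6.01, 6.38 and 6.79 TPM in QJHTD (0.34 ± 0.14 (SE), unadjusted p = 0.0325, limma). The ceramidases, which release sphingosine from ceramide, did not pass at an unadjusted p: Asah1 had a log2 fold change of 0.03 ± 0.10 (SE) (95% interval -0.20 to 0.27), Acer2 of -0.18 ± 0.15 (SE) (95% interval -0.51 to 0.15) and Acer3 of 0.02 ± 0.10 (SE) (95% interval -0.20 to 0.25). Acer1 was under the filter on low values.

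Acute-phase, metal-binding and stress genes were lower in part. Of 17 acute-phase genes 3 were lower (17.6%, against 2.88%) and none higher. Fgg, the gamma chain of fibrinogen, stood at 5.97, 5.04 and 4.25 TPM in Model and 2.59, 1.65 and 2.14 TPM in QJHTD (-0.96 ± 0.16 (SE), unadjusted p = 1.80e-04, adjusted p = 0.179, limma). Its partner Fga stood at 3.27, 4.29 and 2.31 TPM in Model and 1.99, 1.48 and 1.65 TPM in QJHTD (-0.64 ± 0.18 (SE), unadjusted p = 0.00623, limma). Neither overlapped, and in Control Fgg stood at 0.03, 0.06 and 0.07 TPM and Fga at 0.06, 0.03 and 0 TPM. The count was 8 without Model replicate 3 and 5 without QJHTD replicate 3. Orm2, an acute-phase glycoprotein, stood the other way at 42.8, 31.3 and 40.9 TPM in Model and 44.8, 52.4 and 44.3 TPM in QJHTD (0.30 ± 0.14 (SE), unadjusted p = 0.0579, limma). The metallothioneins, which bind zinc and copper and respond to glucocorticoids and metals, were lower without overlap: Mt2 stood at 200.03, 229 and 193 TPM in Model and 127, 131 and 149.6 TPM in QJHTD (-0.60 ± 0.12 (SE), unadjusted p = 7.84e-04, limma). Mt1 stood at 254, 239 and 229 TPM in Model and 168, 171 and 192 TPM in QJHTD (-0.44 ± 0.09 (SE), unadjusted p = 0.00112, limma). With them, 4 of 16 glucocorticoid-induced genes were lower (25.0%), the others being Dusp1, the phosphatase of MAP kinases (54.8, 48.98 and 47.8 TPM in Model and 35.7, 31.5 and 44.2 TPM in QJHTD, -0.45 ± 0.17 (SE)), and Tsc22d3 (GILZ; 51.1, 46.8 and 51.97 TPM in Model and 34.3, 35.4 and 40.6 TPM in QJHTD, -0.43 ± 0.17 (SE)). The count was 2 without Model replicate 1, without QJHTD replicate 1 without QJHTD replicate 2 or without both Model replicate 2 and QJHTD replicate 1. Fkbp5, a co-chaperone of the glucocorticoid receptor, stood at 22.1, 20.8 and 14.4 TPM in Model and 11.8, 13.6 and 14.3 TPM in QJHTD (-0.48 ± 0.26 (SE), unadjusted p = 0.0998, limma).

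Genes that smoke and oxidants induce through Ahr and Nrf2 were lower in 6 of 36 cases (16.7%, against 2.88% of all genes) and higher in none. Nqo1, the quinone reductase, stood at 3.8, 3.17 and 4.7 TPM in Model and 2.46, 2.29 and 2.78 TPM in QJHTD (-0.47 ± 0.15 (SE), unadjusted p = 0.0126, limma). Slc7a11, the cystine importer, stood at 8.5, 5.89 and 10.3 TPM in Model and 6.11, 3.32 and 4.28 TPM in QJHTD (-0.73 ± 0.22 (SE), unadjusted p = 0.00977, limma), with QJHTD replicate 1 inside the Model range. Txnrd1, thioredoxin reductase, stood at 42.9, 34.4 and 34.2 TPM in Model and 31.8, 29.04 and 30.2 TPM in QJHTD (-0.28 ± 0.11 (SE), unadjusted p = 0.0291, limma). Gclm, a subunit of the glutathione-making ligase, stood at 26.2, 24.8 and 41.5 TPM in Model and 20.8, 20.3 and 24.2 TPM in QJHTD (-0.45 ± 0.18 (SE), unadjusted p = 0.0304, limma). Nqo1 stood at 9.08, 7.32 and 9.91 TPM in Control, so that QJHTD was further from it than Model was. The count was 3 without QJHTD replicate 2, 11 without Model replicate 2 and 10 without Model replicate 2 and QJHTD replicate 1. Of 19 immediate early genes 3 were lower (15.8%, against 2.88% of all genes, and 1 without Model replicate 1), of which Nr4a3, an orphan nuclear receptor, stood at 4.02, 3.68 and 4.86 TPM in Model and 2.83, 2.01 and 2 TPM in QJHTD (-0.66 ± 0.15 (SE), unadjusted p = 0.00141, limma).

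Endothelial genes were higher in QJHTD, by small steps from a low base. Of 25 tested, 9 were higher at an unadjusted p (36.0%, against 4.27% of all genes), 11 did not overlap (against 8.74%), none was lower and none passed after adjustment. The median log2 fold change was 0.26, where the level of the list in Model was 4.08 ± 0.0495 (SD, n = 3) log2(TPM + 1) and in Control 6.50 ± 0.0835 (SD, n = 3). The level in QJHTD was 4.22, 4.26 and 4.48 against 4.11, 4.03 and 4.12 in Model, so every QJHTD library exceeded every Model library.

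The transcription factor Sox18, which acts in vessel growth, had the smallest p of the list. It stood at 19.7, 20.4 and 22.6 TPM in Model and 27.5, 27.4 and 27.8 TPM in QJHTD (0.39 ± 0.08 (SE), unadjusted p = 6.48e-04, limma), against 135, 139 and 138 TPM in Control. Aplnr, the apelin receptor, stood at 6.99, 6.93 and 7.06 TPM in Model and 11.5, 9.4 and 10.2 TPM in QJHTD (0.50 ± 0.11 (SE), unadjusted p = 0.00152, limma). Plvap, a protein of the diaphragms of fenestrated endothelium, stood at 43.6, 49.2 and 46.8 TPM in Model and 59.2, 58.02 and 57.9 TPM in QJHTD (0.32 ± 0.08 (SE), unadjusted p = 0.00249, limma). Pecam1, the general endothelial marker, stood at 57.8, 58.1 and 58.05 TPM in Model and 65.1, 67.2 and 72.4 TPM in QJHTD (0.23 ± 0.08 (SE), unadjusted p = 0.0208, limma). None of these overlapped between the groups. Mmrn2, an endothelial matrix protein outside the list, stood at 3.51, 3.4 and 3.22 TPM in Model and 4.79, 5.3 and 4.99 TPM in QJHTD (0.46 ± 0.10 (SE), unadjusted p = 0.00119, limma).

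Receptors of the VEGF and angiopoietin pathways were higher in a like share. Of 18 genes of the axis 6 were higher (33.3%, against 4.27% of all genes) and none lower, with a median of 0.25, and the list shares genes with the endothelial list. Kdr, the main VEGF receptor, stood at 13.2, 12.8 and 11.6 TPM in Model and 14.9, 18.4 and 14.96 TPM in QJHTD (0.33 ± 0.11 (SE), unadjusted p = 0.0161, limma). Tek, the angiopoietin receptor TIE2, stood at 8.36, 8.27 and 9.25 TPM in Model and 11.3, 10.6 and 12.3 TPM in QJHTD (0.36 ± 0.10 (SE), unadjusted p = 0.0054, limma), against 93.2, 96.2 and 80.3 TPM in Control. Angpt1, the ligand of Tek made by pericytes and epithelium, stood at 3.91, 3.66 and 4.31 TPM in Model and 4.86, 4.66 and 5.17 TPM in QJHTD (0.25 ± 0.10 (SE), unadjusted p = 0.0369, limma). Ligand and receptor were thus both higher in all QJHTD libraries.

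BMP signaling through ALK1 keeps endothelium quiescent. Of 17 genes of a list of BMP and ALK1 signaling, 4 were higher (23.5%, against 4.27% of all genes) and none lower. Bmp4, one of the BMP ligands, stood at 17.1, 16.9 and 14.97 TPM in Model and 24.6, 26.1 and 20.2 TPM in QJHTD (0.50 ± 0.11 (SE), unadjusted p = 0.00106, limma). Id3, a direct target of BMP signaling, stood at 22.4, 25.9 and 23.9 TPM in Model and 29.6, 33 and 34.9 TPM in QJHTD (0.42 ± 0.09 (SE), unadjusted p = 0.00136, limma). Smad6, the feedback inhibitor, stood at 6.55, 6.41 and 7.71 TPM in Model and 8.84, 8.79 and 11.3 TPM in QJHTD (0.43 ± 0.13 (SE), unadjusted p = 0.0097, limma). None overlapped between groups. The co-receptor Eng stood at 25.1, 24.1 and 24.9 TPM in Model and 29.1, 29.1 and 35.6 TPM in QJHTD (0.32 ± 0.13 (SE), unadjusted p = 0.0309, limma). In Control these genes were far higher, Bmp4 at 85.6, 83.2 and 88.9 TPM and Id3 at 140.5, 153 and 143 TPM.

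Leaving out Model replicate 2 and QJHTD replicate 1 left 8 endothelial, 5 VEGF and 5 BMP genes higher at an unadjusted p. Without QJHTD replicate 3, which was the highest endothelial library, the counts were 5, 3 and 3, in this order. Smooth muscle genes, cardiomyocyte genes and adipocyte genes, which come with large vessels, heart or fat in a piece of lung, also differed between libraries: the cardiomyocyte list ranged from 1.75 to 3.94 log2(TPM + 1) in Model and from 1.76 to 4.87 in QJHTD, highest in QJHTD replicate 3 and Model replicate 3. Their part in the endothelial values was not tested.

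**Figure D3:**
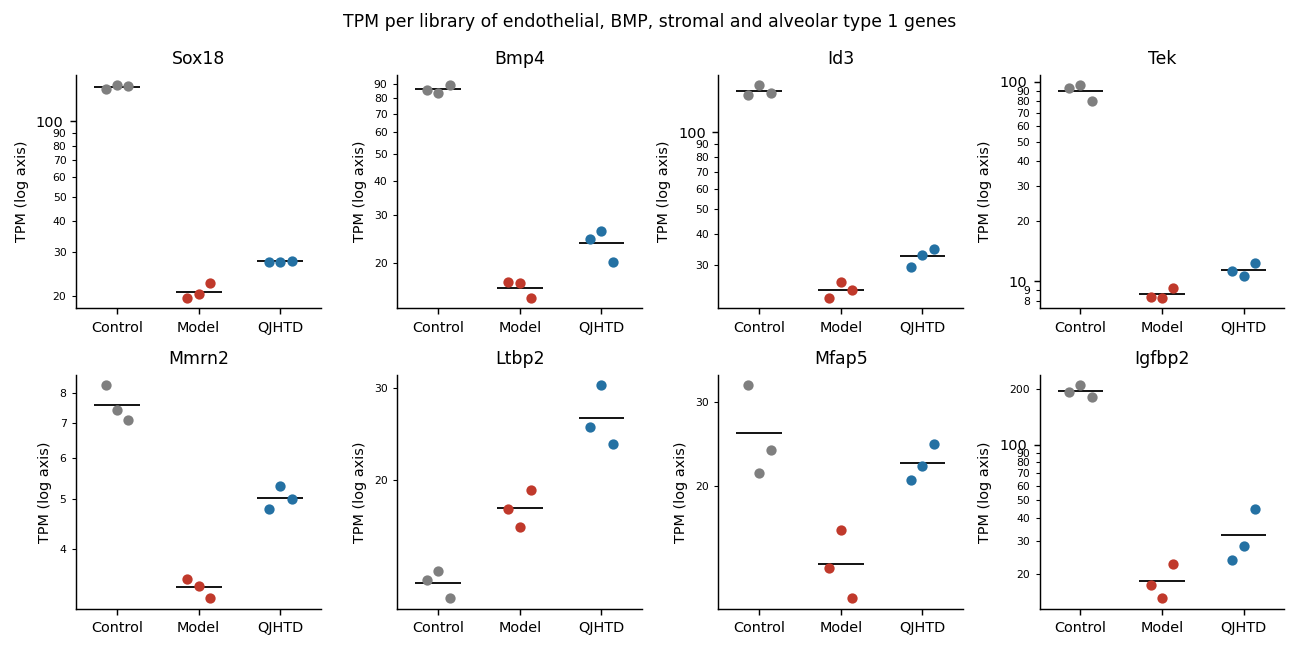
TPM per library (y axis, logarithmic) of Sox18, Bmp4, Id3, Tek, Mmrn2, Ltbp2, Mfap5 and Igfbp2 in the 3 groups (x axis); points are libraries and black bars are means of 3. In each gene all QJHTD points lie above all Model points, as for Sox18 at 27.5, 27.4 and 27.8 against 19.7, 20.4 and 22.6 TPM, and in Sox18, Bmp4, Id3, Tek and Igfbp2 the Control points lie far above both.

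Stromal and alveolar type 1 genes had positive fold changes of a similar size, few of which passed. Collagen and elastic fibre genes had 3 of 29 higher (10.3%) and none lower, with a median of 0.19, and fibroblast genes 2 of 19 (10.5%), against 4.27% of all genes. Both counts became 1 without Model replicate 1, without QJHTD replicate 2 or without QJHTD replicate 3. Mfap5, a glycoprotein of microfibrils, stood at 13.5, 16.2 and 11.7 TPM in Model and 20.6, 22.1 and 24.5 TPM in QJHTD (0.67 ± 0.17 (SE), unadjusted p = 0.00294, limma), with 32.4, 21.3 and 23.9 TPM in Control. Ltbp2, which binds microfibrils and is in neither list, stood at 17.6, 16.3 and 19.1 TPM in Model and 25.2, 30.3 and 23.4 TPM in QJHTD (0.54 ± 0.11 (SE), unadjusted p = 9.09e-04, limma) where Control stood at 12.9, 13.4 and 11.9 TPM. Fbln5, which organises elastic fibres, stood at 18.01, 15.8 and 14.7 TPM in Model and 19.4, 21.3 and 18.9 TPM in QJHTD (0.28 ± 0.11 (SE), unadjusted p = 0.0278, limma). These 3 genes did not overlap. All 15 alveolar type 1 genes had a positive fold change (median 0.20), 1 of them at an unadjusted p: Igfbp2, at 17.4, 14.7 and 22.4 TPM in Model and 23.8, 28.1 and 44.8 TPM in QJHTD (0.76 ± 0.22 (SE), unadjusted p = 0.00728, limma). With any 1 library left out, 1 to 3 of the 15 were higher at an unadjusted p. Alveolar type 2 genes had a median of -0.01, and none of 18 passed.

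Genes of T and B cells were higher in QJHTD. Of 27 T cell genes 10 were higher at an unadjusted p (37.0%, against 4.27% of all genes) and none was lower, with a median of 0.37. In 10 of them QJHTD was higher without overlap (against 8.74% of all genes). Of 21 B cell genes 6 were higher (28.6%, against 4.27% of all genes) and none was lower, with a median of 0.39. In 9 of them QJHTD was higher without overlap (against 8.74% of all genes). Cd4, the co-receptor of helper T cells, stood at 7.05, 6.79 and 6.97 TPM in Model and 8.48, 11.3 and 8.7 TPM in QJHTD (0.39 ± 0.13 (SE), unadjusted p = 0.0166, limma). Cd28, the costimulatory receptor, stood at 3.34, 3.11 and 4.67 TPM in Model and 5.1, 5.06 and 5.33 TPM in QJHTD (0.40 ± 0.14 (SE), unadjusted p = 0.0179, limma). Ctla4, which opposes it, stood at 4.35, 3.71 and 4.55 TPM in Model and 5.29, 6.69 and 5.44 TPM in QJHTD (0.39 ± 0.14 (SE), unadjusted p = 0.0235, limma). None of these overlapped, while Cd8a, of cytotoxic T cells, stood at 2.08, 1.76 and 3.06 TPM in Model and 2.15, 3.3 and 3.02 TPM in QJHTD with overlap.

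Among B cell genes, Cd22, an inhibitory co-receptor, stood at 16.6, 9.76 and 14.1 TPM in Model and 18.7, 23.6 and 17.9 TPM in QJHTD (0.56 ± 0.18 (SE), unadjusted p = 0.013, limma). Cd72, another co-receptor, stood at 25.2, 28.6 and 24.3 TPM in Model and 30.4, 59.6 and 51.3 TPM in QJHTD (0.78 ± 0.27 (SE), unadjusted p = 0.016, limma). Both were higher in every QJHTD library than in any Model library. Plasma cell genes, whose transcripts fill the libraries, did not share this: 1 of 27 was higher (3.70%, against 4.27% of all genes), none lower, and the median was 0.09. Igkc stood at 84771, 99735 and 100410.0 TPM in Model and 103660.0, 88618 and 94219 TPM in QJHTD and Igha at 40053, 49217 and 38815 TPM in Model and 53377, 44562 and 42677 TPM in QJHTD.

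The lymphocyte counts also depended on single libraries. T cell genes higher at an unadjusted p numbered 3 without Model replicate 1, without Model replicate 2 or without QJHTD replicate 3, 2 without QJHTD replicate 2 and 16 without QJHTD replicate 1. B cell genes numbered 2 without Model replicate 1, without QJHTD replicate 2 or without QJHTD replicate 3, 3 without Model replicate 2, and 11 without Model replicate 3 or without Control replicate 1. Without Model replicate 2 and QJHTD replicate 1 there were 9 T cell and 2 B cell genes.

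Cell cycle genes were higher without overlap more often than all genes, 16 of 29 against 8.74%, with 5 at an unadjusted p (17.2%, against 4.27%), none lower and a median of 0.29. Mcm5, a subunit of the replicative helicase, stood at 11.7, 11.5 and 11.4 TPM in Model and 14.4, 16.8 and 20.6 TPM in QJHTD (0.53 ± 0.15 (SE), unadjusted p = 0.00633, limma). Mcm2, another subunit, stood at 10.8, 8.97 and 10.2 TPM in Model and 11.5, 13.1 and 15.6 TPM in QJHTD (0.38 ± 0.13 (SE), unadjusted p = 0.0197, limma). The mitotic kinase Plk1 stood at 6.71, 6.24 and 7.55 TPM in Model and 8.42, 8.26 and 12.4 TPM in QJHTD (0.43 ± 0.15 (SE), unadjusted p = 0.0201, limma). Cenpe, the kinesin of the centromere and outside the list, stood at 3.24, 3.25 and 2.42 TPM in Model and 4.86, 4.89 and 5.52 TPM in QJHTD (0.62 ± 0.13 (SE), unadjusted p = 0.00107, limma). In all 4 genes QJHTD replicate 3 was the highest library. Without it 1 cell cycle gene was higher at an unadjusted p, as without Model replicate 2, while 3 were without Model replicate 1, 10 without QJHTD replicate 1, and 8 without QJHTD replicate 2 or without Control replicate 3.

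Interferon-induced genes spread widely among the QJHTD libraries. Their mean level was 5.10, 5.27 and 5.02 log2(TPM + 1) in Model and 4.64, 6.31 and 5.39 in QJHTD. Of 33 genes, 1 was higher at an unadjusted p (3.03%, against 4.27% of all genes) and none was lower. Irf7, the master factor of the response, stood at 111, 124 and 84 TPM in Model and 86.7, 348 and 149 TPM in QJHTD, and Mx1, an antiviral GTPase, at 5.09, 6.66 and 5.98 TPM in Model and 4.57, 28.1 and 8.87 TPM in QJHTD. QJHTD replicate 2 lay far above all other libraries in both genes, and QJHTD replicate 1 was the lowest for Mx1. Without QJHTD replicate 2 none was higher, 1 was lower and the median changed from 0.30 to -0.13. Without QJHTD replicate 1, 21 of the 33 genes were higher at an unadjusted p, and without both it and Model replicate 2 there were 20, with a median of 0.89. Cytotoxic genes had the same high library: Gzmb, granzyme B, stood at 6.74, 7.7 and 6.15 TPM in Model and 4.89, 33.8 and 9.8 TPM in QJHTD and the chemokine Ccl5 at 40.2, 47.96 and 45.6 TPM in Model and 32.5, 169 and 63.6 TPM in QJHTD. By contrast, Xcl1, a chemokine of natural killer and CD8 T cells, stood at 1.4, 1.52 and 1.57 TPM in Model and 2.71, 2.61 and 2.7 TPM in QJHTD (0.56 ± 0.14 (SE), unadjusted p = 0.00258, limma). Perforin (Prf1) stood at 2.05, 1.83 and 1.73 TPM in Model and 2.62, 3.36 and 2.76 TPM in QJHTD (0.44 ± 0.13 (SE), unadjusted p = 0.00751, limma), neither with overlap. Cytotoxic genes higher at an unadjusted p numbered 2 of 11 (18.2%, against 4.27% of all genes). They numbered 6 without QJHTD replicate 1 and 5 without it and Model replicate 2.

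**Figure D4:**
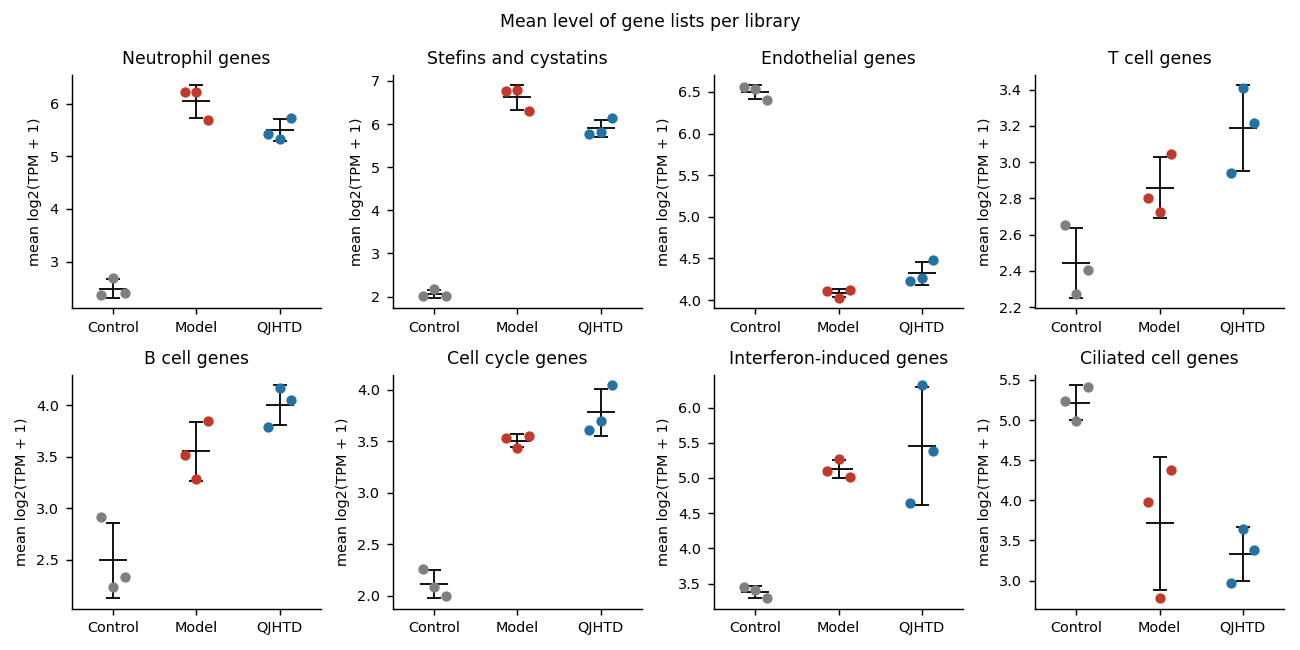
Mean log2(TPM + 1) of the tested genes of 8 lists per library (y axis, not from 0), by group (x axis); points are libraries, bars and whiskers are mean and SD of 3. Neutrophil genes run from 5.69 to 6.22 in Model and from 5.32 to 5.72 in QJHTD, endothelial genes are higher in all 3 QJHTD libraries, and interferon-induced genes reach 6.31 in QJHTD replicate 2 alone.

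Airway genes varied with the library. All 17 ciliated cell genes had a negative fold change, with a median of -0.35, but none passed at an unadjusted p, and the mean level of the list ran from 2.78 to 4.38 log2(TPM + 1) in Model and from 2.97 to 3.64 in QJHTD. Foxj1, the factor that drives ciliation, stood at 37.2, 16.02 and 47.1 TPM in Model and 15.5, 27.5 and 23.8 TPM in QJHTD, with Model replicate 2 beside QJHTD replicate 1 at the bottom. Without these libraries 14 of the 17 were lower at an unadjusted p and the median was -0.69, and without Model replicate 2 alone 15 were. Without Model replicate 3 none was lower and the median was -0.0032, and without QJHTD replicate 1 alone none was lower and the median was -0.21. Club and goblet cell genes gave none of 19. Scgb1a1, the club cell secretoglobin and among the most abundant transcripts, stood at 18946, 11802 and 31554 TPM in Model and 13657, 19834 and 18495 TPM in QJHTD.

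Macrophage and mast cell lists were mixed. Marco, a scavenger receptor of alveolar macrophages, stood at 13.3, 10.97 and 10.1 TPM in Model and 8.5, 3.96 and 4.97 TPM in QJHTD (-0.92 ± 0.22 (SE), unadjusted p = 0.00244, limma). Siglecf, of alveolar macrophages and eosinophils, stood at 2.44, 2.3 and 3.33 TPM in Model and 1.96, 1.89 and 1.51 TPM in QJHTD (-0.40 ± 0.14 (SE), unadjusted p = 0.021, limma). Both were lower in all QJHTD libraries, while Itgax (CD11c) stood at 29.3, 26.5 and 35.2 TPM in Model and 40.01, 37.1 and 35.1 TPM in QJHTD (0.30 ± 0.11 (SE), unadjusted p = 0.0222, limma). Cx3cr1, the fractalkine receptor of patrolling monocytes and interstitial macrophages, stood at 2.71, 3.11 and 3.13 TPM in Model and 4.37, 6.01 and 5.14 TPM in QJHTD (0.63 ± 0.16 (SE), unadjusted p = 0.00317, limma), without overlap. Hdc, which makes histamine in mast cells, basophils and neutrophils, stood at 117, 90.9 and 115 TPM in Model and 60.1, 88.6 and 75.8 TPM in QJHTD (-0.53 ± 0.18 (SE), unadjusted p = 0.0161, limma). In all, alveolar macrophage genes had 1 of 20 higher and 2 lower (5 without Model replicate 2), against 4.27% higher and 2.88% lower among all genes. Monocyte and interstitial macrophage genes had 2 of 23 each way. None of these was lower without Model replicate 1, Model replicate 2 or QJHTD replicate 2, and 4 were higher without QJHTD replicate 1. Eosinophil and mast cell genes had 3 of 7 lower, which became 1 without Model replicate 1 or 3 or QJHTD replicate 1 or 3.

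**Figure D5:**
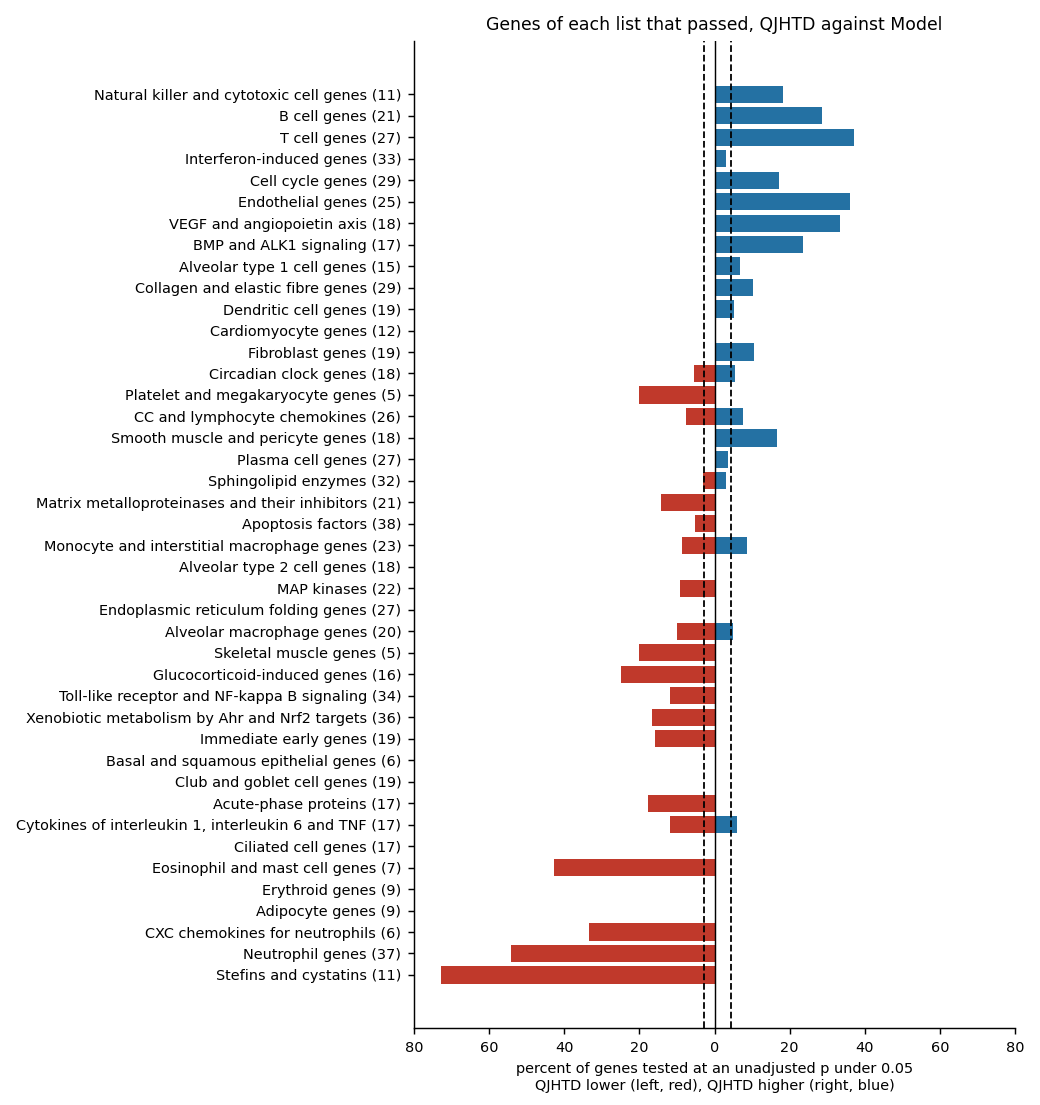
Percent of the tested genes of each list (number tested in parentheses) that were lower (left) or higher (right) in QJHTD at an unadjusted p under 0.05; dashed lines mark the shares of all genes, 2.88% lower and 4.27% higher. Stefins (72.7%) and neutrophil genes (54.1%) reach furthest to the left, and T cell (37.0%), endothelial (36.0%) and VEGF genes (33.3%) furthest to the right.

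The KEGG pathway annotation in the table was counted too, at an unadjusted p. Of genes annotated to the TNF pathway, 8 of 104 tested were lower and 1 higher. To the Toll-like receptor pathway, 7 of 79 were lower and none higher, and to the IL-17 pathway 7 of 78 were lower and 1 higher. NF-kappa B (16 higher and 17 lower of 246), MAP kinase (8 and 11 of 242), apoptosis (3 and 6 of 130) and sphingolipid metabolism (1 and 1 of 39) had members on both sides, against 4.27% higher and 2.88% lower among all genes. Without QJHTD replicate 1, 8 TNF genes were higher and 5 lower, 7 and 7 of the Toll-like receptor pathway, 5 and 5 of the IL-17 pathway, and 15 and 3 of apoptosis. Without both it and Model replicate 2 the counts were 6 higher and 4 lower for TNF, 4 and 5 for Toll-like receptors, 4 and 4 for IL-17, 8 and 3 for apoptosis, 21 and 12 for NF-kappa B, 7 and 6 for MAP kinases, and 0 and 4 for sphingolipid metabolism. With any 1 library left out, lower genes ran from 4 to 11 for TNF, from 6 to 10 for Toll-like receptors and from 3 to 11 for IL-17. The log2 fold changes within the NF-kappa B annotation ran from -2.66 to 3.53. The phospholipase D, Fc epsilon RI and calcium signaling annotations had the same extremes, so these are not particular to NF-kappa B. Genes of the NF-kappa B annotation stood a median of 2.56 higher in Model than in Control on the log2 scale. In the list of Toll-like receptor and NF-kappa B signaling described above, that median was 1.06, and the fold changes ran from -0.63 to 0.33. Antibody segments in the annotation were not counted apart, so its counts may not be of signaling genes alone.

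Outside the lists, several lower genes of small p are known from myeloid cells. Pram1, an adaptor protein of neutrophils, stood at 9.57, 10.1 and 6.91 TPM in Model and 4.32, 3.91 and 4.45 TPM in QJHTD (-0.90 ± 0.14 (SE), unadjusted p = 1.28e-04, adjusted p = 0.158, limma). Cd101, a surface protein of mature neutrophils, stood at 9.22, 9.17 and 5.86 TPM in Model and 4.06, 2.51 and 3.56 TPM in QJHTD (-1.05 ± 0.20 (SE), unadjusted p = 4.49e-04, limma). Cd33, a sialic acid receptor of myeloid cells, stood at 23.2, 21.3 and 17.9 TPM in Model and 12.9, 8.78 and 11.2 TPM in QJHTD (-0.87 ± 0.18 (SE), unadjusted p = 7.54e-04, limma). All of them were at 0.477, 0.418 and 0.527 of the Model mean in QJHTD, in this order. Ncf1, a subunit of the NADPH oxidase, stood at 109, 96.6 and 90.4 TPM in Model and 67.02, 61.4 and 75.2 TPM in QJHTD (-0.53 ± 0.11 (SE), unadjusted p = 9.71e-04, limma). Cyp4f18, which breaks down leukotriene B4, stood at 52.8, 52.9 and 39.8 TPM in Model and 26.1, 21.98 and 31.7 TPM in QJHTD (-0.85 ± 0.17 (SE), unadjusted p = 8.76e-04, limma). Lpcat2, an enzyme of platelet-activating factor, stood at 25.8, 27.2 and 22.1 TPM in Model and 15.8, 15.1 and 18.3 TPM in QJHTD (-0.58 ± 0.11 (SE), unadjusted p = 5.88e-04, limma). The groups did not overlap in any of the 6, and each gene was 2.17 or more higher in Model than in Control on the log2 scale.

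Higher genes of small p outside the lists were of several kinds. Mtf2, a subunit that recruits Polycomb repressive complex 2, stood at 6.36, 5.79 and 6.96 TPM in Model and 10.2, 10.6 and 9.79 TPM in QJHTD (0.61 ± 0.11 (SE), unadjusted p = 3.32e-04, limma). Samd11, a nuclear protein known from the retina, stood at 21.8, 20.5 and 18.5 TPM in Model and 31.9, 36.8 and 28.1 TPM in QJHTD, against 0.19, 0.17 and 0.16 TPM in Control (0.64 ± 0.12 (SE), unadjusted p = 3.69e-04, limma). Vnn1, the pantetheinase, stood at 13.8, 13.2 and 12.1 TPM in Model and 17.8, 22.96 and 20 TPM in QJHTD (0.60 ± 0.14 (SE), unadjusted p = 0.00178, limma). In Samd11 and Vnn1 the Model level was itself above Control and QJHTD was higher still. Rtn2, a reticulon, stood at 4.02, 4.12 and 4.26 TPM in Model and 5.76, 6.07 and 7.1 TPM in QJHTD (0.51 ± 0.11 (SE), unadjusted p = 0.00168, limma). Rftn1, a raft protein of B cells, stood at 25.9, 22.3 and 23.3 TPM in Model and 30.03, 30.9 and 32.01 TPM in QJHTD (0.37 ± 0.09 (SE), unadjusted p = 0.00204, limma). None of these groups overlapped, and none of the genes passed after adjustment.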

How the data were processed

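Lung RNA, prepared with a SMARTer mRNA kit, was sequenced in 3 libraries each of Control, Model and QJHTD mice. The authors deposited TPM per gene, made from reads they trimmed (fastp) and quantified (RSEM). The sources used here do not give the versions. The processing notes name GRCh38.p6, which is human, as the build, but 55140 of 55486 Ensembl identifiers (99.4%) were found in mouse GENCODE M21, from which positions were taken. TPM keep no read counts, so depth is unknown, and strand use in counting was not stated, so overlapping genes are uncertain. Columns of group means were not used.

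Genes that reached 1 TPM in 3 or more of the 6 libraries were tested on log2(TPM + 1), which understates changes of low genes, with limma 3.58.1 in R 4.3.3 (intensity trend, 1 mean per group over 9 libraries, 6 residual and 3.04 prior degrees of freedom, two-sided, Benjamini-Hochberg over 14779 genes). P-values measure the spread between these libraries. The fit was also run on simulated data with planted changes, and the outcome is not reported here. Gene lists (44) and 21 annotated pathways are described by counts and medians without a test. Tables were made with Python 3.11.15 and pandas 2.3.3.

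Genes were named by rule: those past the adjusted p, the 15 of smallest p and the 8 of largest fold change in each direction with a mean of at least 5 TPM and no overlap, up to 4 of each list, all members of 6 lists and of the molecules the study measured, and the 5 most abundant. The members, lists and rules were chosen with earlier results of these data known. Alternatives were other filters, a pseudocount of 0.1, median-ratio rescaling, quantile normalization, TPM rescaled after removing antibody segments, hemoglobin and mitochondrial genes, a fit of 6 libraries, no trend, a replicate block, and libraries left out. Metabolite data were not analysed here, and some named genes are not reported here.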

Additional observations from a re-analysis of the deposited data

How the results depend on the processing

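The number of genes past the adjusted threshold (2) was 4 with no filter on low values, 0 with a mean of at least 5 TPM (405 higher and 309 lower at an unadjusted p under 0.05 in that limma fit), 0 with a pseudocount of 0.1 (616 higher and 371 lower), 1 after median-ratio rescaling, and 1 to 7 with 1 library left out. Genes higher at an unadjusted p (631) were 968 with no filter, 405 with a mean of at least 5 TPM, 1013 with TPM rescaled after removing segments, hemoglobin and mitochondrial genes, and 359 to 1033 with 1 library left out. Genes lower (426) were 696 after median-ratio rescaling, 683 after quantile normalization, and 231 to 795 with 1 library left out. Genes at an unadjusted p with a log2 fold change of at least 1 (81) were 168 without Model replicate 2 and QJHTD replicate 1, and 78 to 154 with 1 library left out. The cause was not tested. The replicate block gave 2 genes past the adjusted threshold, 507 higher and 388 lower, but the numbers share no more than a name: same-numbered libraries correlated in their deviations at -0.06, -0.14 and 0.03, and the highest pair was Model replicate 2 with QJHTD replicate 1 (0.20). Named genes had 5987 values under alternatives. A change of sign was looked for only in genes at an unadjusted p under 0.05, and 0 of their values had one. Another 146 values moved by at least the SE of the gene. In the 2 genes past the adjusted threshold, 12 values missed it, and 5 values of other genes passed it. List medians carry no call, and 38 of 834 had another sign than reported, in 18 lists whose reported medians were at most 0.45 from 0. Over the alternatives the adjusted p (limma) of Gm16550 ran from 0.00222 to 0.205, and that of MSTRG.8758 was above 0.05 only with a pseudocount of 0.1 (0.121), where a mean of at least 5 TPM left it untested. Depth is unknown, so the precision of low values rests on the spread between libraries alone.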

Other observations

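Ribosomal-protein genes were looked at after their values had been seen. Of 91 tested, 32 stood higher in QJHTD without overlap of the libraries and 0 lower, against 8.74% and 3.98% of all genes. Their median log2 fold change was 0.17. Of 37 ribosomal-protein pseudogenes, 7 stood higher without overlap and 0 lower, with a median of 0.14. Pseudogene reads and those of their parent genes may have been shared out between them.

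Short structural RNAs varied widely between libraries. The vault RNA Vaultrc5 stood at 30.04, 12.2 and 14.1 TPM in Model and was listed at 0 in all QJHTD libraries (unadjusted p = 0.00366, adjusted p = 0.462, limma). The 5S ribosomal RNA gene n-R5s141 stood at 52.7, 43.96 and 136 TPM in Model and 0, 19.6 and 0 TPM in QJHTD. Both were chosen after their values were seen.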
